A study of Mus musculus with 8 samples.

Results

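Among single-cell libraries of mouse bone marrow progenitors, 77 wells of the 4 plate2 libraries sat at 6 recurring plate positions where earlier work on these counts had seen RNA of less committed progenitors. Each library file lists all barcodes of the protocol, of which 96 are the library's own set. The position of a barcode is its place in a repeat of 16 columns within that set. The rule took own-set wells at positions 6, 7, 13, 14, 15 and 16 with at least 1000 transcripts, spike-ins left out. Of 144 such barcodes 77 passed, out of 186 kept wells on the plate2 libraries and 417 in all 8 libraries. The positions were picked from the RNA of these same wells (Cd34, Kit, Meis1 and Mecom), so the levels that define them are given below as a description.

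The mice were wild type or Mof -/+, heterozygous for the gene Mof, whose official symbol is Kat8, in bone marrow of otherwise unstated strain, age and sex. Each genotype had 2 libraries named HSC and 2 named plate2, giving 4 groups of 2 libraries. All cells were sorted, flash frozen and made into libraries with CEL-Seq2, in which primers at the 3' end give every molecule a well barcode and a molecular identifier. The series lists a stem cell gate (LSK cells lacking CD34, Flt3 and CD48 and bearing CD150) and 7 gates for erythroid, megakaryocyte and granulocyte-monocyte progenitors and their precursors, but no label says which gate filled a plate2 position. Nothing in the labels says that libraries came from separate animals, so every p-value below measures the spread between libraries, which may be technical. The deletion of Mof in all cells or in some cells only is not stated in the labels.

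Haematopoietic stem cells keep themselves going through transcription factors such as Hlf, Meis1, Mecom and Gata2, and through surface receptors such as Kit, which binds stem cell factor. As cells commit, this programme is replaced by that of a lineage: Gata1, carbonic anhydrases and globins in red cell precursors, granule proteases such as Mpo and Elane in granulocyte precursors, and Pf4, Itga2b and other platelet genes in megakaryocyte precursors. MOF is an acetyltransferase of lysine 16 on histone H4 and works within the MSL and NSL complexes.

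Wild type library 1 held 21 of the 77 wells and 245048 transcripts, wild type library 2 held 22 wells and 226183 transcripts, Mof -/+ library 1 held 18 wells and 146814 transcripts, and Mof -/+ library 2 held 16 wells and 178303 transcripts. Below, 4 values in a row follow this order of libraries, for plate2 and for HSC alike. The 231 HSC wells summed to between 99312 and 244299 transcripts per library. The lowest wells inside the threshold held 1836, 2582 and 2624 transcripts, and the highest wells left out held 965, 704 and 626. The 77 wells used 56 distinct barcodes, and 21 barcodes served a well in more than 1 plate2 library. Between 2.29% and 5.37% of plate2 transcripts carried a barcode of the other set, against 8.12% to 13.6% in the HSC libraries.

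Stem cell genes were carried by 4 of the 6 positions, while position 13 was mixed and position 16 went against the label of less committed progenitors. The genes read here come from the wells that chose the positions, so this is a description and no support for the label. Levels are in CPM, a gene's transcripts scaled to a fixed library total, and since tags are counted at one end of each molecule no length correction applies. At positions 6, 7, 14 and 15, with 14, 15, 21 and 16 wells, pooled Hlf was 569, 494, 1122 and 562 CPM, Meis1 was 230, 247, 174 and 262 CPM, and Mecom was 153, 148, 92.9 and 106 CPM. Position 16 had 5 wells in which Cd34, Kit, Meis1 and Mecom were all at 0 of 121776 transcripts, which allows up to 24.6 CPM of each. Those wells instead carried the alpha globin gene Hba-a1 at 9285 CPM, the beta globin gene Hbb-bs at 6498 CPM, carbonic anhydrase 2 (Car2) at 6378 CPM and the proliferation marker Mki67 at 2268 CPM.

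Position 13 had 6 wells, Kit at 505 CPM, Meis1 at 184 CPM and a sum of 4203 CPM over the stem cell transcription factor list, within the 4044 to 5079 CPM of positions 6, 7, 14 and 15, but Hlf at 0 of 43580 transcripts. Its Car1 stood at 643 CPM and its Gata1 at 230 CPM, beside 5.81 to 31.2 CPM of Car1 and 5.81 to 24.95 CPM of Gata1 at positions 6, 7, 14 and 15. Gata2 reached 919 CPM at position 13, and Cd48, which codes for a surface protein absent from sorted stem cells, reached 115 CPM. Positions 13 and 16 are therefore named by number below, and results that position 16 moves are given with and without it. Wells at position 16 numbered 2, 2, 0 and 1 over the 4 libraries, so Mof -/+ library 1 had none.

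**Figure D1:**
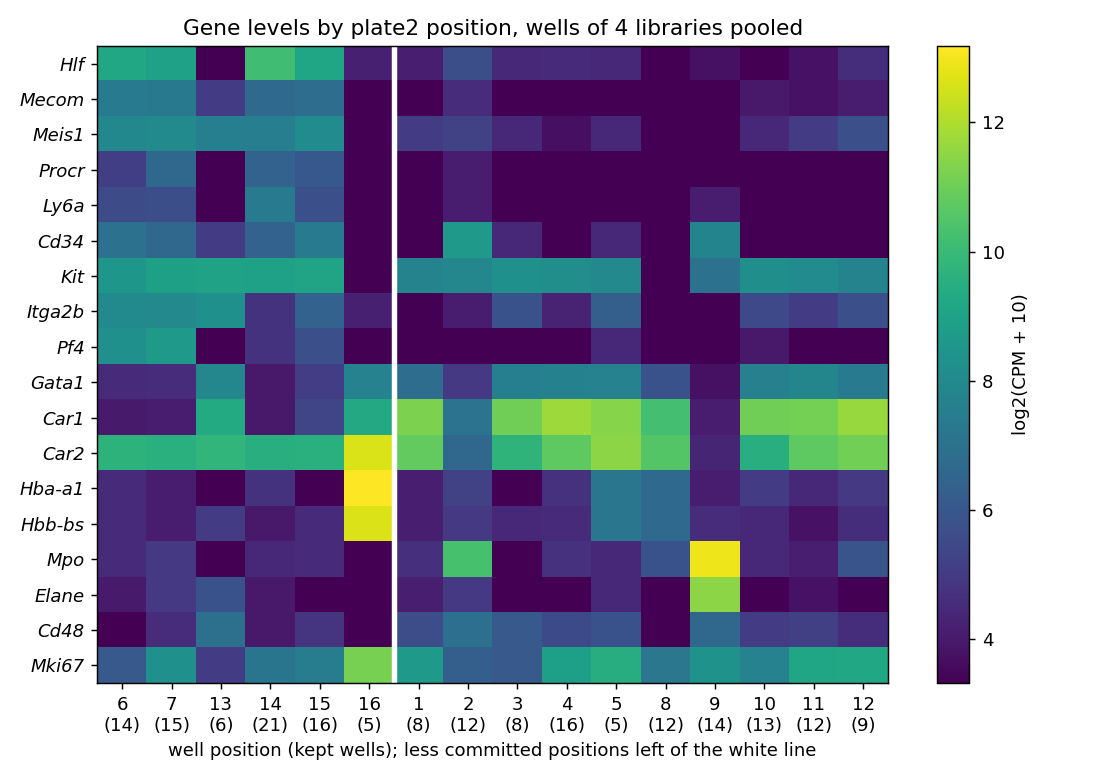
Level of 18 genes at each of the 16 plate2 positions, all 4 libraries pooled, as log2 of CPM plus 10, with the 6 chosen positions marked. Hlf, Meis1, Mecom and Kit are bright at positions 6, 7, 14 and 15, while position 16 shows globin genes, Car2 and Mki67 and none of the 4 defining genes. Kit also shows at most of the positions not chosen.

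Of the 77 wells, 9 yielded under 400 genes when thinned to 1000 transcripts, beside 19 of 109 at the other plate2 positions and 2 of 231 HSC wells. One of the 5 wells at position 16, in wild type library 2, held 287 genes with 56.8% of its transcripts mitochondrially encoded and no globin transcript. Leaving out all wells under 400 genes, a choice made after seeing the data, gave 974 genes past the threshold against HSC wells in place of 1026, and the same single gene for genotype.

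Hlf, a transcription factor that sustains stem cells and that the rule does not name, measured 499, 584, 716 and 472 CPM in the chosen wells, 23.1, 0, 6.25 and 6 CPM at the other plate2 positions, and 1048, 835, 696 and 850 CPM in HSC wells. Every library of chosen wells was far above its own other positions, and 1 of 4 lay within the HSC range. Meis1, a cofactor of Hox proteins, measured 155, 212, 191 and 208 CPM in the chosen wells, at most 23.1 CPM at the other positions, and 262, 126, 213 and 310 CPM in HSC wells. The Meis1 ranges of chosen and HSC wells overlapped, and the fitted difference was -0.03 ± 0.28 (SE) on the log2 scale. Mecom, which codes for the zinc finger factor EVI1, measured 93.9, 115, 102 and 84.2 CPM, beside 171, 107, 188 and 240 CPM in HSC wells.

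Kit, the receptor for stem cell factor, measured 343, 500, 470 and 275 CPM in the chosen wells and 171, 165, 213 and 520 CPM in HSC wells. Mof -/+ HSC library 2 stood above all 4 libraries of chosen wells, while the other 3 HSC libraries stood below them. Kit was also present at the other plate2 positions, at 200 to 298 CPM in all but position 9 (122 CPM) and position 8 (0 CPM). The chosen positions held 364 to 524 CPM, except position 16 with 0 CPM. At full depth 64 of 77 chosen wells and 78 of 109 others held a Kit transcript. Cd34, a surface sialomucin, measured 73.5, 106, 116 and 72.9 CPM in the chosen wells, 111, 25.8, 22.9 and 98 CPM at the other positions, and 141, 184, 119 and 285 CPM in HSC wells. Among these 3 classes Cd34 RNA was highest in cells sorted as lacking the CD34 protein, and it did not separate the chosen wells from the other plate2 positions, of which position 2 reached 388 CPM and position 9 reached 209 CPM. The fitted log2 differences from HSC wells were 0.86 ± 0.30 for Kit, -0.78 ± 0.34 for Cd34 and -0.61 ± 0.30 for Mecom, given without a test because these genes served to choose the positions. In GRCm38, the genome build called mm10 in the submitters' notes, GENCODE vM21 places Cd34 at chromosome 1 from 194938819 to 194961279, Kit at chromosome 5 from 75574916 to 75656722, Meis1 at chromosome 11 from 18879817 to 19018985 and Mecom at chromosome 3 from 29951296 to 30548008.

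**Figure D2:**
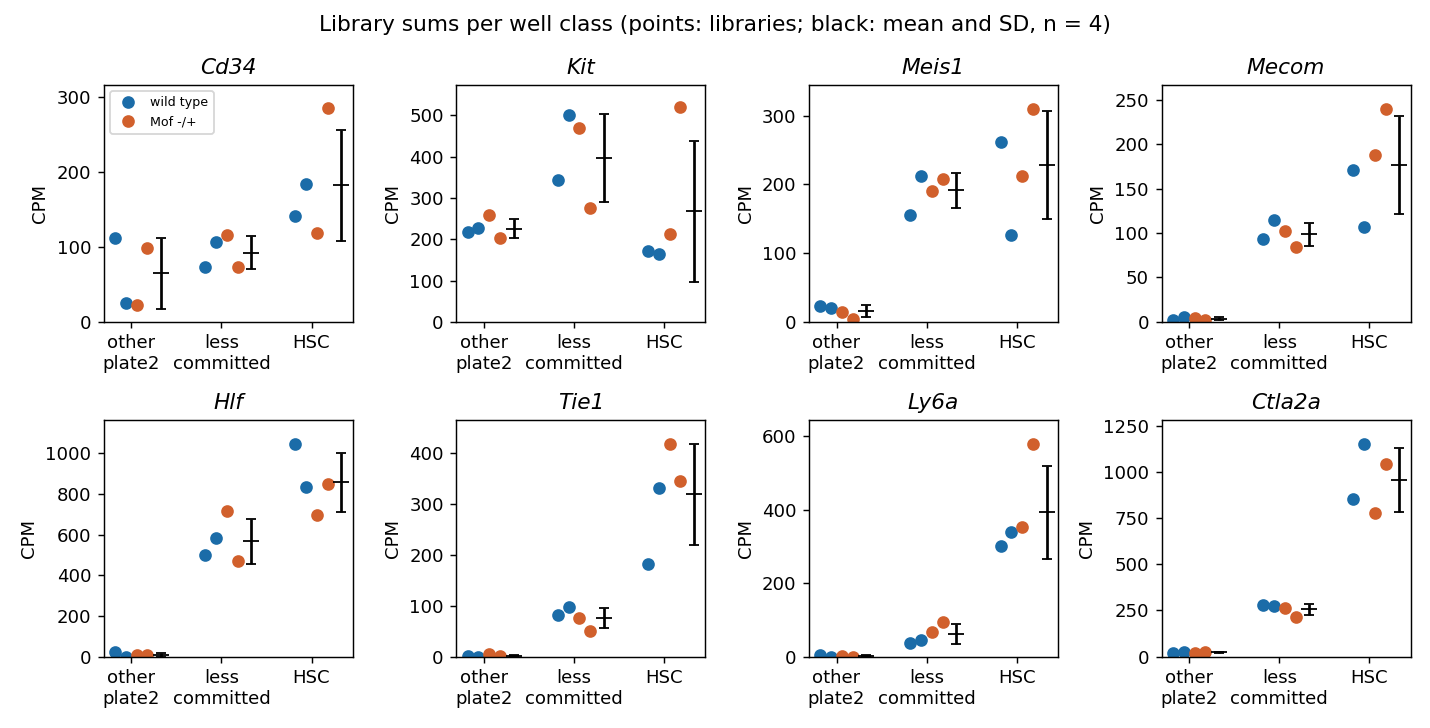
CPM of 8 genes per library (points, blue wild type and orange Mof -/+) at the other plate2 positions, in the chosen wells (named less committed) and in HSC wells, with mean and SD over 4 libraries in black. Hlf, Meis1 and Mecom separate the chosen wells from the other plate2 positions, whereas Tie1, Ly6a and Ctla2a are highest in HSC wells.

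Counted well by well at an equal depth of 1000 transcripts, Hlf was seen in 29 of 77 chosen wells (37.7%, exact Clopper-Pearson 95% interval 26.9 to 49.4%), in 2 of 109 wells at the other positions (1.83%) and in 131 of 231 HSC wells (56.7%, 50.1 to 63.2%). All 29 lay at positions 6, 7, 14 and 15, which hold 66 wells, and at full depth 60 of those 66 held a Hlf transcript. Meis1 was seen in 16 of 77 chosen wells, 1 of 109 others and 48 of 231 HSC wells, and Kit in 32, 18 and 57. Ly6a, which codes for the stem cell antigen Sca-1, was seen in 8 of 77 chosen wells (10.4%, 4.59 to 19.4%), 0 of 109 others and 81 of 231 HSC wells (35.1%, 28.9 to 41.6%). Median depths before thinning were 9109, 13476 and 2307 transcripts, and such intervals and shares cover counting error only. Without thinning, Ly6a was present in 32.5% of chosen wells, 2.75% of others and 50.6% of HSC wells.

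Lineage genes were counted well by well in the same way. Mpo was seen in 0 of 77 chosen wells at 1000 transcripts and in 27 of 109 wells at the other positions, and Elane in 0 and 12. Car1 was seen in 8 chosen wells and 54 others. Hba-a1 was seen in 4 chosen wells, in 3 others and in 75 of 231 HSC wells, so globin RNA was more widespread in the HSC wells than in the plate2 wells outside position 16. Mme, which codes for the surface peptidase CD10, was seen in 18 chosen wells, 24 others and 11 HSC wells.

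Against the other plate2 positions of the same libraries, 115 of 3640 genes with at least 50 CPM were at least 2-fold higher in all 4 libraries (3.16%) and 31 were at least 2-fold lower (0.852%), together 4.01%. The positions were chosen from this contrast, so it carries no test. The gene with the highest median log2 ratio was Hlf (6.17), and the beta globin gene Hbb-bt (6.04) and the Myc family gene Mycn (5.37) were also among the highest. Further genes near the top were the extracellular protein gene Mmrn1 (4.78), Serpina3g (4.76), Myct1 (4.67), the caveola gene Sdpr (4.64), Pf4 (4.63), the cell cycle inhibitor gene Cdkn1c (4.58), the thromboxane synthase gene Tbxas1 (4.58), Csgalnact1 (4.41), the homeobox gene Nkx2-3 (4.36) and Mecom (4.31).

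Globin levels moved with position 16, to an unequal degree. The median log2 ratio of Hba-a1 was 5.12 with all 77 wells and -0.15 without the 5 wells at position 16. Hbb-bt measured 1901, 393, 102 and 1007 CPM with all wells and 27.5, 10.2, 102 and 242 CPM without position 16, beside 2.1, 0, 0 and 16 CPM at the other positions, so its median ratio fell from 6.04 to 3.38 and stayed positive. Its levels without position 16 rest on only 5, 2, 15 and 36 transcripts. In those wells Hba-a1 and Hbb-bs were at 0 in both Mof -/+ libraries. Of the stem cell transcription factors fixed as a list, 9 of 15 with at least 50 CPM were 2-fold higher in all 4 libraries and none was lower, with a median log2 ratio of 2.26. The matching counts were 12 of 16 for stem cell surface and secreted genes (median 2.995) and 6 of 9 for megakaryocyte and platelet genes (median 2.46), while the median over all genes was -0.02. Over all 3640 genes 3.16% were at least 2-fold higher and 0.852% lower in all 4 libraries. The list of multipotent and lymphoid primed genes stood the other way, with a negative ratio in 7 of 8, 1 of them 2-fold lower in all 4 libraries, and a median of -1.57. By library it summed to 625, 672, 831 and 786 CPM in the chosen wells and to 1866, 1111, 1448 and 1673 CPM at the other positions, with no overlap. By position the sums were highest at positions 2 and 9 (4092 and 3260 CPM). The remaining other positions held 735 to 1297 CPM, which overlapped the 378 to 1400 CPM of the chosen positions.

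Genes lower at the chosen positions included those of granulocytes and monocytes. Mpo, the peroxidase of neutrophil granules, measured 4.08, 8.84, 34.1 and 5.61 CPM against 1470, 25.8, 2074 and 1534 CPM at the other positions, a median log2 ratio of -6.38. Most of that Mpo came from position 9 (7888 CPM) and position 2 (1257 CPM). The remaining other positions held 0 to 49.5 CPM, near the 0 to 21.2 CPM of the chosen positions. Wild type library 2 had 0 wells at position 9 and 1 at position 2. Ly6c2 (-4.53), the cathepsin G gene Ctsg (-4.37), Car1 (-3.93), the metallothionein genes Mt2 (-3.80) and Mt1 (-3.75), Atp8b4 (-3.77), Atp1b2 (-3.74) and the monocyte factor gene Irf8 (-3.44) were also lower. Hp, which codes for haptoglobin, was at 0 in all 4 sums of chosen wells and at 73.5, 46.5, 89.7 and 68 CPM at the other positions. Among the fixed lists, 4 of 12 neutrophil progenitor genes and 4 of 8 monocyte and dendritic genes were 2-fold lower in all 4 libraries, and none was higher. Of 26 early erythroid genes 3 were 2-fold lower in all 4 libraries and none higher (median -0.30), and without position 16 the count was 11 of 23 lower (median -1.59). Over all genes 115 of 3640 were 2-fold higher and 31 lower in all 4 libraries with all wells. Without position 16 the matching counts were 169 and 75 of 3733. All 9 globin and late erythroid genes had a positive ratio (median 2.003), and without position 16 only 2 of that list had at least 50 CPM. Leaving out 1 library, so that the fold rule needed 3 libraries in place of 4, raised the count of 146 genes to between 171 and 227, the last without wild type library 2.

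The S phase and mitosis lists stood near the other positions with all wells and lower without position 16. With all 77 wells 0 of 24 and 0 of 19 members were 2-fold changed in all 4 libraries, with median log2 ratios of -0.09 and -0.14. Without position 16, 22 of 23 S phase genes had a negative ratio (median -0.74), as did 17 of 17 mitosis genes (median -0.90), 1 of which was 2-fold lower in all 4 libraries. Over all 3733 genes without position 16, 1910 had a negative ratio and 75 were 2-fold lower in all 4 libraries. The S phase sum was then 1454, 2900, 961 and 3240 CPM in the chosen wells and 3564, 2516, 3759 and 4490 CPM at the other positions, so wild type library 2 went the other way. Mki67 was seen at 1000 transcripts in 6 of 66 wells at positions 6, 7, 14 and 15 and in 28 of 109 wells at the other positions. Growth genes leaned lower. Of 28 Myc and ribosome biogenesis genes 27 had a negative ratio (median -0.76), as did 67 of 73 nuclear respiratory chain genes (median -0.42) and 61 of 71 cytosolic ribosomal protein genes (median -0.17). Without position 16 these medians were -0.70, -0.69 and -0.26. Over all genes 1868 of 3640 had a negative ratio with all wells (median -0.02).

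Per well, chosen wells held 9192, 9202, 8596 and 8157 transcripts as library medians, a mean of 8787 ± 507 (SD, n = 4), and HSC wells held 1601, 1567, 2923 and 2979, a mean of 2267 ± 790 (SD, n = 4). The groups did not overlap (exact permutation test, two-sided p = 0.0286, the smallest that 4 against 4 allows, 0.0571 after Benjamini-Hochberg adjustment over 4 measures). Spike-in RNA, added in equal amount to wells of a plate in this kind of assay, went the other way, at 16.3 ± 2.36 transcripts per chosen well and 201 ± 83.2 per HSC well (SD, n = 4, exact permutation p = 0.0286, adjusted 0.0571). The amount of spike-in used on each plate set is not given in the sources used here, so whether the chosen cells held more RNA was not tested. At 1000 transcripts the library medians overlapped: 626 ± 18.5 genes in chosen wells and 617 ± 28.9 in HSC wells (SD, n = 4, exact permutation p = 0.6, adjusted 0.8). The lower tail differed, with 9 of 77 chosen wells and 2 of 231 HSC wells under 400 genes. The library median of the mitochondrially encoded share was 14.4 ± 1.23% in chosen wells and 14.4 ± 1.35% in HSC wells (SD, n = 4, exact permutation p = 0.971, adjusted 0.971). With library means in place of medians, chosen wells differed from HSC wells by -26.0 genes and by 1.05 percentage points.

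**Figure D3:**
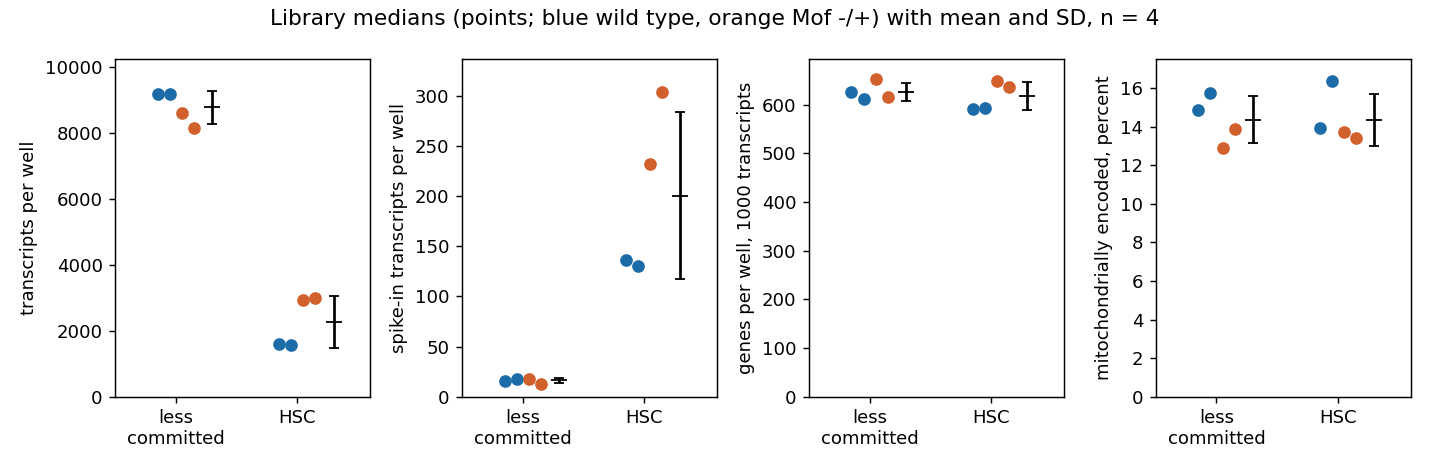
Library medians per well (points, blue wild type and orange Mof -/+) of transcripts, spike-in transcripts, genes at 1000 transcripts and mitochondrially encoded percent, with mean and SD over 4 libraries. Transcripts and spike-ins separate chosen from HSC wells in opposite directions, and the other two measures overlap.

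Summed per library and fitted with edgeR, the chosen wells differed from HSC wells in 1026 of 4642 genes tested (22.1%), 540 higher (11.6%) and 486 lower (10.5%), at an adjusted p under 0.05. The chosen wells and the HSC wells came from different libraries throughout, so plate set and cell type cannot be told apart in this comparison. Levels at the other plate2 positions, which share plates with the chosen wells, are therefore given beside many of the genes below. Without position 16, 532 genes rose and 472 fell out of 4040 tested, and 841 of these calls were among the 1026.

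The wells were chosen from their stem cell programme, so genes of the stem cell and lineage lists are given as values with no p. Of 19 stem cell surface and secreted genes fitted, 12 had a negative and 7 a positive difference from HSC wells (median log2 difference -0.55), and of 19 stem cell transcription factors 12 were negative and 7 positive (median -0.17). Without position 16 these medians were -0.24 and 0.09, so that of the transcription factors turned. Ly6a measured 36.7, 44.2, 68.1 and 95.4 CPM in chosen wells and 302, 340, 352 and 580 CPM in HSC wells, a log2 difference of -2.53 ± 0.30. The protease inhibitor gene Ctla2a measured 278, 274, 266 and 213 CPM against 856, 1155, 778 and 1045 CPM (-1.70 ± 0.24). Tie1, an endothelial and stem cell receptor gene, measured 81.6, 97.3, 75 and 50.5 CPM against 181, 330, 418 and 345 CPM (-1.87 ± 0.30). None of these 3 genes overlapped between the classes, which their choice from the list by smallest p in this comparison favours. All stood between 0 and 25.8 CPM at the other plate2 positions.

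Further surface genes with lower values in chosen wells were Ly6e (-1.74 ± 0.22), the interferon-induced membrane genes Ifitm1 (-1.29 ± 0.21) and Ifitm3 (-0.92 ± 0.23), and the TNF receptor gene Cd27 (-1.05 ± 0.28). These genes and Ly6a, Ctla2a and Tie1 show the lower side only, while 7 of 19 surface and secreted genes fitted had a positive difference. Some transcription factor genes stood the other way. Gata2 was higher by 0.97 ± 0.26, Lmo2 by 0.998 ± 0.26, Runx1 by 1.15 ± 0.33 and the mRNA decay factor gene Zfp36l2 by 1.16 ± 0.25, whereas the chromatin gene Hmga2 was lower (-1.49 ± 0.45). Gata2, for example, measured 294, 341, 300 and 269 CPM in chosen wells and 121, 116, 258 and 260 CPM in HSC wells. The ETS factor gene Fli1 measured 110, 97.3, 143 and 112 CPM against 20.1, 9.7, 53.2 and 45 CPM (2.25 ± 0.41), and 21 to 36.1 CPM at the other plate2 positions.

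Hlf differed by -0.39 ± 0.22 when all 77 wells were summed. Without position 16 the difference was -0.14 for Hlf, and those of Ly6a and Ctla2a were -2.27 and -1.44. The tetraspanin gene Cd53 was nearly missing from the chosen wells, at 4.08, 8.84, 6.81 and 0 CPM, beside 63, 36.1, 52.1 and 66 CPM at the other plate2 positions and 80.6, 97, 139 and 165 CPM in HSC wells. Cd48 was at 0 in all 4 HSC libraries, whose sort excluded CD48.

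Outside the lineage lists, the largest rise was in Rpl27, a gene of the large ribosomal subunit, at 110, 35.4, 102 and 95.4 CPM in chosen wells and at 0 in all 4 HSC libraries. It was at least 18.1-fold higher, taking 3 counts over the HSC group as the floor (edgeR quasi-likelihood test, Benjamini-Hochberg adjusted p = 3.39e-05). At the other plate2 positions Rpl27 measured 69.3, 41.3, 137 and 110 CPM, so its presence was shared by the plate2 libraries.

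Further genes at the head of the rise did not differ 2-fold in all 4 libraries between the chosen and the other plate2 positions. The non-coding Snhg6 rose by 5.99, the succinate dehydrogenase subunit gene Sdhd by 5.43, the translation initiation factor gene Eif2s3x by 5.28, Rplp2 by 4.93, Usp17la by 4.77, the condensin gene Ncapg2 by 4.59 and the mitochondrial peptidase gene Pitrm1 by 4.24, with edgeR adjusted p between 3.96e-05 and 0.00477. Olfr613, an olfactory receptor gene, rose by 4.94 ± 1.05 (edgeR adjusted p = 0.00198). Sdhd measured 61.2, 35.4, 102 and 112 CPM in chosen wells and 132, 124, 175 and 158 CPM at the other positions. All of these genes were at 0 in both wild type HSC libraries, the shallower HSC libraries.

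The steepest falls were in Adam11, Fam214b, Atp6v1g2, Orai1, Vamp1, Fzr1, Cyp4v3 and Ceacam1. Orai1, the pore of store-operated calcium channels, fell from 232, 262, 164 and 170 CPM in HSC wells to 4.08, 44.2, 27.3 and 16.8 CPM in chosen wells (log2 difference -2.94 ± 0.42, edgeR adjusted p = 3.22e-05). Fzr1, the APC/C activator that holds cells in G1, fell from 151, 369, 233 and 70 CPM to 24.5, 35.4, 20.4 and 16.8 CPM (-2.86 ± 0.45, edgeR adjusted p = 8.14e-05). Neither gene overlapped between the classes, which the rule for naming these falls required. At the other plate2 positions Orai1 measured 16.8 to 34 CPM and Fzr1 35.4 to 54 CPM, again near the chosen wells. Adam11 fell by 4.58 on the log2 scale (edgeR adjusted p = 0.000623), Fam214b by 3.30, Atp6v1g2 by 3.08, Vamp1 by 2.89, Cyp4v3 by 2.83 and Ceacam1 by 2.78 (edgeR adjusted p between 0.000119 and 0.0174).

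Myc, the transcription factor of growth and ribosome production, rose. It measured 73.5, 159, 157 and 61.7 CPM in chosen wells, 238, 212, 152 and 202 CPM at the other plate2 positions and 10.1, 9.7, 16.4 and 20 CPM in HSC wells (log2 difference 3.18 ± 0.52, edgeR adjusted p = 0.000121). Its list of Myc and ribosome biogenesis genes did not rise as a whole: 2 of 26 rose (Myc and Utp20), 1 fell (the spermidine synthase gene Srm) and the median was 0.06. Of 71 cytosolic ribosomal protein genes 38 rose and 8 fell, with a median log2 difference of 0.70 beside -0.000524 over all genes. Beside both lists, 11.6% of all genes rose and 10.5% fell. Rpl34 (2.26 ± 0.24), Rpl14 (2.12 ± 0.25) and Rplp0 (1.90 ± 0.23) rose, and at the other plate2 positions they averaged 1117, 1722 and 1763 CPM, above the 902, 1341 and 1398 CPM of the chosen wells. Ribosomal protein genes have many near-identical copies in the genome, and how reads shared by copies were counted is not given in the sources used here.

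Some cell cycle genes rose against HSC wells, and fewer did without position 16. Of 23 S phase genes 6 rose and none fell (median 0.66), and of 24 mitosis genes 5 rose and none fell (median 0.98), where 11.6% of all genes rose. Without position 16, where 13.2% of all genes rose and 11.7% fell, 4 of 21 S phase genes rose and 1 fell (median 0.20), and 2 of 17 mitosis genes rose and 2 fell (median -0.33). The chromatin protein gene Hmgb2 measured 707, 532, 430 and 688 CPM in chosen wells and 131, 116, 94.2 and 75 CPM in HSC wells, a log2 difference of 2.72 ± 0.27 (edgeR adjusted p = 2.75e-07). The other plate2 positions stood at 759 CPM on average, beside 589 CPM in the chosen wells. Chosen and HSC wells were far apart, and without position 16 Hmgb2 still rose, by 1.81 (edgeR adjusted p = 9.89e-05).

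The chromatin remodeller gene Hells rose by 3.57 ± 0.54 with all wells and by 3.19 without position 16, the sliding clamp gene Pcna by 1.93 ± 0.41 and 1.28, and the replicative helicase gene Mcm4 by 1.84 ± 0.44 and 1.27 (edgeR adjusted p 0.0419 or below in each). At the other plate2 positions Hells, Pcna and Mcm4 averaged 114, 163 and 134 CPM, beside 116, 185 and 136 CPM in the chosen wells and 10.5, 55 and 45.2 CPM in HSC wells. Uhrf1 rose by 1.91 with all wells and did not pass without position 16 (1.15, edgeR adjusted p = 0.162), nor did the kinesin gene Kif20b (1.77 with all wells, 1.35 without, edgeR adjusted p = 0.111). Among D cyclins and cycle brakes, Ccnd3 rose by 3.30 ± 0.72 and Cdk4 fell by 0.90. Mof -/+ library 1, with no well at position 16, had the lowest S phase sum, 961 CPM against 3543, 3664 and 4408 CPM. With position 16 left out of every library it was still the lowest, against 1454, 2900 and 3240 CPM.

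**Figure D4:**
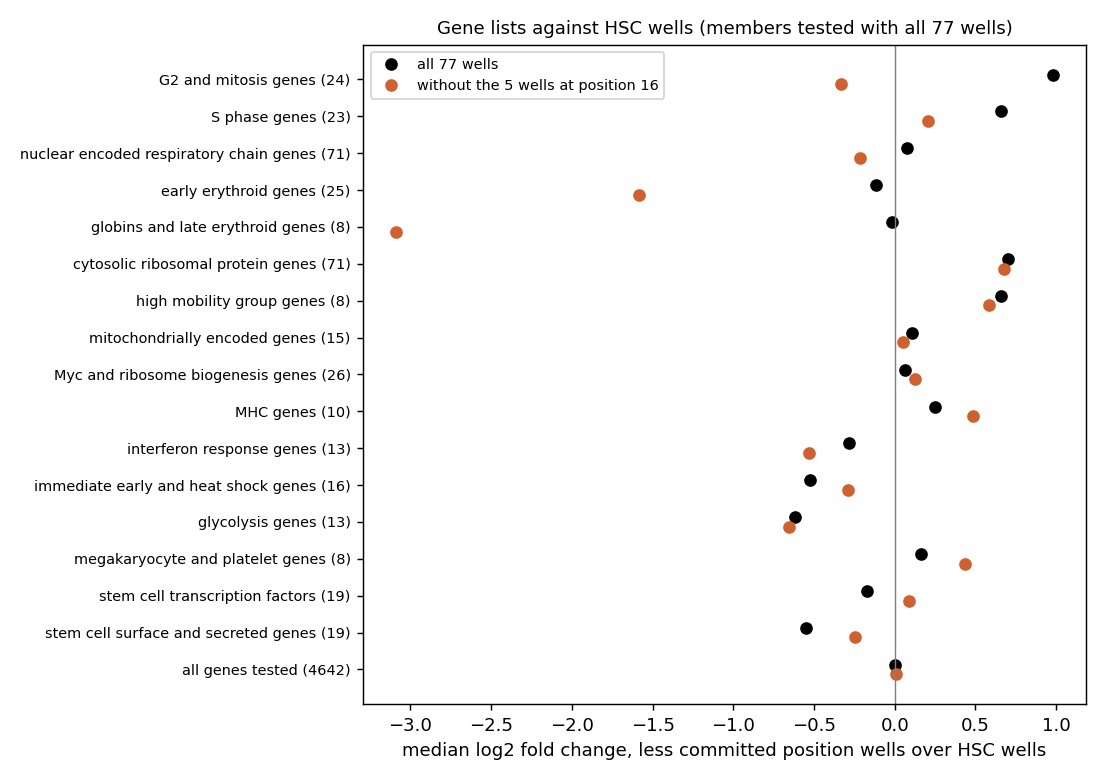
Median log2 difference of chosen wells (named less committed) from HSC wells for a selection of gene lists and for all genes, with all 77 wells and without the 5 wells at position 16. The red cell, globin and mitosis lists shift with position 16, and the ribosomal protein and glycolysis lists stay in place.

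Energy genes moved in a mixed way. Over all genes 11.6% rose and 10.5% fell with all wells, and 13.2% rose and 11.7% fell without position 16. Of 13 glycolysis genes tested 4 fell and 1 rose, with a median log2 difference of -0.62, and without position 16 5 of 10 fell and none rose (median -0.66). The pyruvate kinase gene Pkm measured 233, 341, 218 and 337 CPM in chosen wells, 177, 51.6, 236 and 176 CPM at the other plate2 positions and 1199, 1262, 827 and 825 CPM in HSC wells (-1.64 ± 0.23, edgeR adjusted p = 2.78e-05). Aldoa fell by 1.21, Gpi1 by 1.20 and Pgam1 by 1.25, and their means at the other plate2 positions were 274, 276 and 197 CPM, nearer the chosen wells (202, 199 and 102 CPM) than HSC wells (544, 533 and 279 CPM) for Aldoa and Gpi1. Pgk1 rose by 3.70 ± 1.25 (edgeR adjusted p = 0.038) but was at 0 in 3 HSC libraries and at 50 CPM in the fourth, so its libraries overlapped.

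Of 71 nuclear respiratory chain genes 16 rose and 6 fell with all wells (median 0.08), and 8 rose and 10 fell of 66 without position 16 (median -0.22). The shares without position 16 lay near the 13.2% higher and 11.7% lower of all genes. The cytochrome oxidase gene Cox5a rose by 2.17 ± 0.43 and the related Cox7a2l fell by 1.82 (edgeR adjusted p = 0.00103 and 1.5e-05), with 196 and 189 CPM at the other plate2 positions, 121 and 211 CPM in chosen wells and 31.1 and 892 CPM in HSC wells. Of 15 mitochondrially encoded genes 4 rose and 4 fell. The short mt-Atp8 measured 662, 682, 450 and 427 CPM against 141, 48.5, 94.2 and 130 CPM (2.60 ± 0.28, edgeR adjusted p = 8.58e-07), and mt-Nd6 rose by 2.65 ± 0.40. The abundant mt-Nd5 fell by 1.35 and mt-Nd4 by 1.15. mt-Atp8 and mt-Nd6 overlap neighbouring genes in the mitochondrial genome, and the assignment of reads there is not given in the sources used here.

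Antigen presentation, interferon and stress genes were counted as lists, where 11.6% of all genes rose and 10.5% fell. Of 10 MHC genes 4 rose and 1 fell: B2m by 0.73 ± 0.21, H2-T23 by 1.88 ± 0.39 and the immunoproteasome genes Psmb9 and Psmb8 by 1.90 and 1.06 rose, while the class II gene H2-Ab1 fell by 2.62. B2m was not separated between classes, since Mof -/+ HSC library 2 reached 2518 CPM against 1654 to 1926 CPM in chosen wells. Of 13 interferon response genes 4 fell and none rose, including Ifitm2 (-1.01), Oasl2 (-1.60) and Ifit1 (-1.70). Ifit1 did not pass without position 16 (edgeR adjusted p = 0.0934). Of 16 immediate early and heat shock genes 4 fell (Jun, Jund, Ier3 and Dusp2, by 0.92 to 1.68) and Hspa8 rose by 0.96. Jun and Dusp2 did not pass without position 16 (edgeR adjusted p = 0.0976 and 0.12).

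Kat8, the gene of MOF, was too sparse to test: 4, 2, 1 and 4 transcripts in the chosen wells (16.3, 8.84, 6.81 and 22.4 CPM) and 10.1, 19.4, 4.09 and 10 CPM in HSC wells, with no label giving the deleted part of the gene. Wild type and Mof -/+ libraries overlapped, so Kat8 counts offered no check of genotype at this depth. Of 11 genes of the MSL and NSL complexes Ogt rose by 1.17 while Hcfc1 and Msl1 fell by 1.09 and 1.10. Of 7 histone deacetylase genes Hdac1 rose by 1.39 and Sirt7 fell by 1.08. These shares lay near the 22.1% called over all genes.

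Genes of other cells in the HSC libraries moved with part of this comparison. Mature neutrophil genes summed to 110 to 177 CPM over the 4 libraries of chosen wells and to 5722, 48.5, 1185 and 2274 CPM in the HSC libraries, and 7 of 8 had a negative difference. Chil3, a neutrophil granule gene, was at 0 in all chosen wells and at least 14.4-fold higher in HSC wells, given as a value. Globin and late erythroid genes summed to 16344 CPM in wild type HSC library 1 and to 993 to 2083 CPM in the other 3. Early erythroid genes changed their standing with position 16: 10 of 25 had a positive difference with all wells (median -0.11) and 2 of 21 without it (median -1.59). The part of these cells in the other differences was not tested, except that dropping each well marked by 10 or more neutrophil transcripts gave 551 genes higher and 463 lower.

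Between genotypes, the chosen wells differed in a single gene of 4642 tested. Pf4, platelet factor 4, rose in Mof -/+ wells (0.0215% of genes tested) and no gene fell (0%), while 99 genes had an unadjusted p under 0.05. Pf4 measured 16.3 and 35.4 CPM in the wild type libraries and 384 and 248 CPM in the Mof -/+ libraries, a log2 difference of 3.49 ± 0.54 (edgeR quasi-likelihood test, Benjamini-Hochberg adjusted p = 0.00619). The groups did not overlap, with 4, 8, 56 and 44 transcripts counted. GENCODE vM21 places Pf4 at chromosome 5 from 90772435 to 90773383 on the forward strand of GRCm38.

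Those transcripts lay in few wells. One well at position 7 of Mof -/+ library 1 held 53 of the 56, and one at position 6 of Mof -/+ library 2 held 36 of the 44. Pf4 was present in 3, 5, 4 and 4 wells of the 4 libraries, so the number of wells with Pf4 did not separate the genotypes. Without the 2 wells holding at least 30 Pf4 transcripts, a choice made after seeing the data, the log2 difference was 0.53 (edgeR adjusted p = 1). The call was also lost with limma-voom (adjusted p = 0.0836) and on leaving out wild type library 1, wild type library 2 or Mof -/+ library 1 (edgeR adjusted p = 0.456, 0.0526 and 0.0884).

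The same 2 wells also held 17 and 19 transcripts of Itga2b, which codes for the platelet integrin CD41, and 147 and 185 transcripts of the whole megakaryocyte and platelet list. In HSC wells Pf4 measured 60.4, 19.4, 267 and 115 CPM and was present in 3, 1, 13 and 12 wells. The wells with Pf4 were thus 13 of 68 and 12 of 67 in the Mof -/+ HSC libraries and 4 of 18 and 4 of 16 among the chosen Mof -/+ wells, at different depths. The highest single HSC well held 27 of 65 transcripts in Mof -/+ library 1 and 4 of 23 in library 2.

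**Figure D5:**
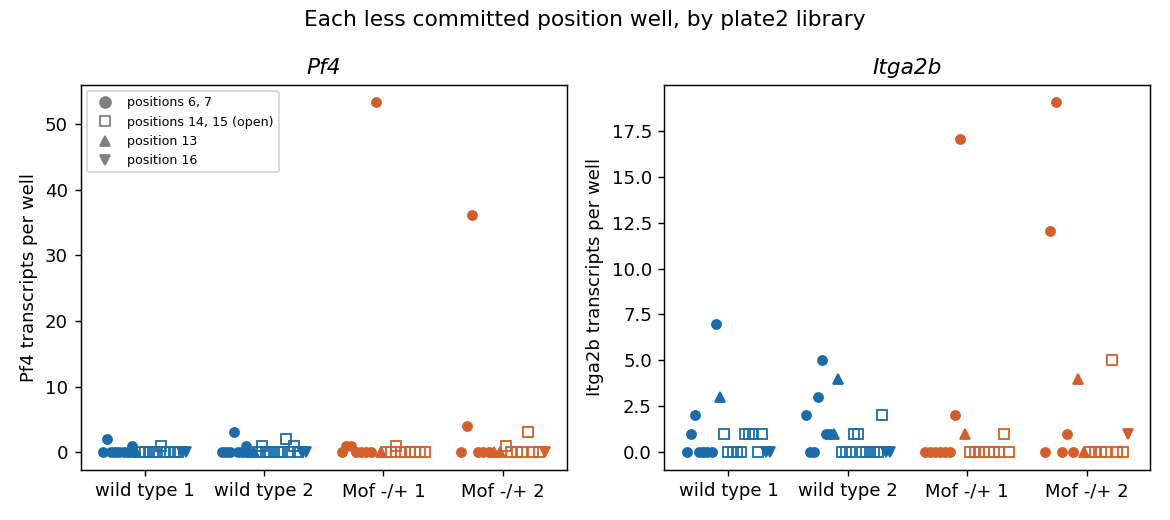
Transcripts of Pf4 and of Itga2b in each chosen well, by library. One well in each Mof -/+ library stands far above the rest for Pf4, with 53 and 36 transcripts, while all other wells hold 4 or fewer.

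Other genes with the smallest p did not pass in the genotype comparison (edgeR adjusted p = 1 for each). Klhl32, a BTB-Kelch family gene, measured 40.8 and 17.7 CPM in wild type and 116 and 208 CPM in Mof -/+ libraries, a log2 difference of 2.34 ± 0.65. Sdpr measured 49 and 13.3 against 95.5 and 174 CPM (1.98 ± 0.61), and 11 of 14 and 26 of 31 of its Mof -/+ transcripts came from a single well of each library. On the other side stood Ascc3, a helicase gene, with 85.7 and 66.3 against 13.6 and 11.2 CPM (-2.66 ± 0.77). Rhog (-1.67), Stx17 (-1.90), Spire1 (-2.28) and Wipi1 (-3.76) were also lower without passing, and the mitochondrial ribosome gene Mrps33 was higher (1.71). The libraries of the genotypes did not overlap for these genes, which the choice by smallest p brings with it.

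As lists, genotype gave no call beyond Pf4, and several medians turned with position 16. Early erythroid genes had a positive difference in 1 of 25 and a median of -0.77 with all wells, and in 14 of 21 with a median of 0.30 without position 16. Mitosis genes were positive in 7 of 24 (median -0.21) with all wells and in 16 of 17 (median 1.16) without it. Their sum without position 16 was 700, 2013, 2790 and 2403 CPM, with wild type library 1 far below the rest. Position 7 alone reached 6509 CPM in wild type library 2 and 7095 CPM in Mof -/+ library 1. Lists that kept their sign were cytosolic ribosomal proteins (61 of 71 positive, median 0.18, and 62 of 71, median 0.23), mitochondrially encoded genes (15 of 15 negative, median -0.29, and 14 of 15, median -0.24), immediate early and heat shock genes (13 of 16 negative, median -0.44, and 13 of 16, median -0.45) and interferon response genes (11 of 13 positive, median 0.36, and 10 of 10, median 0.22). The median over all genes was -0.01 with all wells. Hlf and the 4 defining genes had differences no larger than their errors: Hlf by 0.04 ± 0.32, Meis1 by 0.03 ± 0.39, Cd34 by -0.03 ± 0.50, Mecom by -0.26 ± 0.43 and Kit by -0.27 ± 0.39, none passing (edgeR adjusted p = 1).

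No gene's genotype effect differed between the chosen wells and the HSC wells at an adjusted p under 0.05 (0% of 4642), although 259 had an unadjusted p under 0.05 by edgeR, 111 by DESeq2 and 197 by limma-voom. The closest were Mid1 (4.28 ± 1.02) and Klhl32 (3.42 ± 0.82) on the higher side and Ascc3 (-5.72 ± 1.33) and Pnrc2 (-3.25 ± 0.78) on the lower side, all with an edgeR adjusted p of 0.351. Ascc3 measured 10.1 and 0 CPM in wild type and 53.2 and 45 CPM in Mof -/+ HSC libraries, the opposite of its order in the chosen wells. Scaper, Zfp771, Mrpl45, Vmp1, Hnrnpa2b1 and Chchd3 followed with an edgeR adjusted p of 0.709.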

How the data were processed

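The values are expected counts: per the labels' protocols each well was a CEL-Seq2 sample, and the deposited numbers are estimated transcripts per gene and well, in which the count of distinct molecular identifiers had been corrected for collisions in a pool of 4096 (read from the values). BWA 0.6.2-r126 and mm10 are named in the submitters' processing notes, while the annotation, strand setting and handling of reads shared by copies are unstated in the labels and headers. Of 19879 gene names 95.6% were found in GENCODE vM21. Spike-in rows were left out of library totals.

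Wells were summed per library and class, expected counts were rounded, and the 8 sums (2 libraries in each of 4 groups) were fitted with edgeR 4.0.16 in R 4.3.3: TMM, filterByExpr, quasi-likelihood test, Benjamini-Hochberg adjustment over 4642 genes, threshold 0.05. All 4 groups shared 1 spread per gene, and the common biological coefficient of variation was 0.262. Comparison with the other plate2 positions used log2 ratios with a prior of 1 count and no test. Shares of wells used 1000 transcripts drawn per well. On simulated counts the genotype fit recovered 7% of 2-fold and 47% of 4-fold changes (4084 genes), and the HSC fit 29% and 76% (4102 genes). The genotype fit made 3 false calls and the HSC fit 2. Library sums were drawn with the fitted trend of spread, so excess in a single well, as for Pf4, was not simulated.

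Named genes were the 10 largest rises and falls against HSC wells (at least 50 CPM, classes not overlapping), the 15 largest ratios on each side against the other positions, the smallest p for genotype and its difference between sets, up to 4 genes of each of 33 lists, and Kat8, Cd34, Kit, Meis1 and Mecom; predicted models were left out, and a few genes it picks are not reported here. Cd27, Cd48, Dusp2, Elane, Gata1, Hbb-bs, Ifitm1, Itga2b, Mki67, Mme, Pgk1, Psmb8, Rap1b and Uhrf1 were outside that rule and were named after their values were seen. Wells, members and lists were all chosen with earlier results of these data known. Alternatives were DESeq2 1.42.0, limma-voom 3.58.1, RLE scaling, other well and count minimums, other positions, all barcodes, and leaving out each library; those without position 16, globin, Pf4 rich or low-gene wells, without repeat-like models, by library size alone and with crossed replicate numbers were chosen after seeing the data. Genes in families of near-identical copies (globin, Ly6, MHC, ribosomal protein genes) are uncertain for that reason.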

Additional observations from a re-analysis of the deposited data

Results flagged for a closer look

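Wild type HSC library 2 had a median mitochondrially encoded share of 16.4% per well, while the other 3 HSC libraries lay between 13.4% and 13.9%, a gap large for a group of 4. Kit in Mof -/+ HSC library 2 was 520 CPM, far above the 165 to 213 CPM of the other 3 HSC libraries, and without it the order of Kit between chosen and HSC wells has no overlap. Chance alone marks about 1 in 20 such groups, and no cause was tested.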

How the results depend on the processing

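With 2 libraries per group the genotype comparison rests on few cells, and the single call, Pf4, depends on 2 wells. The count of genotype calls, 1 as reported, was 0 with each well thinned to 1000 transcripts (588 genes tested), 0 with limma-voom, 0 at positions 13 to 16 only, 0 without the Pf4 rich wells, 5 with no low-count filter and 2 without position 16 and globin rich wells. It ran from 0 to 2 on leaving out a library, where an arm of 1 library is assumed to vary like the others. Against HSC wells the 1026 calls became 564 with DESeq2, 207 of 588 when thinned (fewer genes tested), 682 of 3256 at positions 13 to 16 only and 576 of 2136 at positions 6 and 7 only, and leaving out a library gave 694 to 1027. By library size alone 37.4% of calls were higher in place of 52.6%, with the median of all genes at -0.18. The difference between genotype effects, 0 calls as reported, gave 6 with no low-count filter and 0 to 3 on leaving out a library. Against the other positions the 146 genes became 57 when thinned, 305 at a fold of 1.5, 262 at positions 6 and 7 only, 244 without position 16, and 171 to 227 on leaving out a library. Hba-a1 turned to -0.15 without position 16, and Spire1 for genotype to 0.0761 at positions 6 and 7 only.

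Genes per well differed from HSC wells by -26.0 with library means and by -2.13 at positions 13 to 16, in place of 9.12. The mitochondrially encoded share differed by 0.344 percentage points with at least 2000 transcripts per well, 1.05 with library means and 0.00793 without position 16, in place of -0.00802, and by -0.471 to 0.661 on leaving out a library. Causes were not tested. Of HSC libraries only, numbers in the labels could pair samples: deviations of same-numbered libraries correlated at -0.136 over 4642 genes in 2 pairs. A replicate block gave 558 calls against HSC wells and left the genotype count at 1 and the difference at 0. A crossed replicate block gave 559, 2 and 1.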

Other observations

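Positions 6 and 7 (29 wells) and positions 14 and 15 (37 wells) both carried stem cell genes and differed in a set of other genes. This split was chosen after seeing the data, so it is a description. Of 3734 genes with at least 50 CPM, 15 were at least 2-fold higher at positions 6 and 7 in all 4 libraries and 4 were lower. Sdpr measured 153, 25.9, 184 and 422 CPM at positions 6 and 7 and 0, 9.62, 0 and 13.8 CPM at positions 14 and 15. Counts were low, and in wild type library 2 Sdpr had 2 transcripts against 1. Itga2b, the CD41 gene, measured 127, 155, 250 and 481 CPM against 53, 38.5, 16.2 and 69.1 CPM. The small GTPase gene Rap1b measured 293, 207, 382 and 693 CPM against 138, 86.6, 80.8 and 111 CPM. In the Mof -/+ libraries much of this lay in the 2 wells rich in Pf4: 17 of 19 and 19 of 32 transcripts of Itga2b, 11 of 14 and 26 of 28 of Sdpr and 20 of 29 and 38 of 46 of Rap1b. Without those wells, a choice also made after seeing the data, the Mof -/+ libraries measured 33.8 and 302 CPM for Itga2b, 50.7 and 46.4 CPM for Sdpr and 152 and 186 CPM for Rap1b at positions 6 and 7, and the blocks then overlapped for Itga2b. Pf4 was not 2-fold higher in all 4 libraries, and 53 of 55 and 36 of 40 of its Mof -/+ transcripts at positions 6 and 7 lay in those wells.

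Among the lower genes at positions 6 and 7, Cd74, the invariant chain of MHC class II, was at 0 in all 4 libraries and at 53, 77, 16.2 and 96.8 CPM at positions 14 and 15. Those levels rest on only 5, 8, 1 and 7 transcripts. Stem cell genes differed in part between the blocks. Hlf measured 536, 674, 579 and 316 CPM at positions 6 and 7 and 839, 771, 988 and 871 CPM at positions 14 and 15, with no overlap. Ly6a was also lower at positions 6 and 7 in all 4 libraries (median log2 ratio -0.92). It had few transcripts, 3, 4, 3 and 2 against 6, 6, 7 and 15, and was nearly level in wild type library 2 (51.8 against 57.7 CPM). Mecom was 229 against 53 CPM in wild type library 1 and between 105 and 143 against 97 to 135 CPM in the others. Meis1 measured 242, 246, 210 and 255 CPM at positions 6 and 7 and 191, 250, 194 and 221 CPM at positions 14 and 15. Among the 6 chosen positions Hlf was highest at position 14, at 1122 CPM, as was Mme, at 670 CPM against 176 to 293 CPM at positions 6, 7, 13 and 15 and 90.4 CPM at position 16; position 10, which was not chosen, had 798 CPM of Mme. One well at position 14 of wild type library 1 held 51 Mme transcripts and only 167 genes when thinned to 1000 transcripts. Across 3370 genes, the log2 CPM profile of positions 6, 7, 14 and 15 correlated with the HSC pool at 0.787, 0.783, 0.799 and 0.798. The correlation was 0.657 at position 13, 0.560 at position 16 and 0.573 to 0.733 at the other 10 positions. Positions share plates but not depth, which ran from 43199 transcripts at position 8 and 43580 at position 13 to 300508 at position 4. The part of depth in these correlations was not tested, and they carry no test.

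Predicted models made up 111 of the 1026 genes called against HSC wells. Gm10800, a predicted model on chromosome 2 from 98666547 to 98667301 of GRCm38, took up 116627, 99627, 93998 and 55735 CPM in the chosen wells and 44185, 46489, 26807 and 44683 CPM in HSC wells. It ranged from 37711 to 143613 CPM over the chosen positions and from 20955 to 222781 CPM over the other plate2 positions. The repeat-like models summed to 131317, 112177, 108225 and 63552 CPM in chosen wells and to 98937, 182458, 41198 and 32392 CPM at the other positions. Leaving the 4 repeat-like models out before scaling gave 1037 calls.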
